A study of Homo sapiens with 22 samples.

Results

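The early S initiation zones are the 2473 regions of the deposited zone list, in which DNA made at the start of S phase was enriched in EdU-seq of DLD-1 cells. Every row of the list was taken, and all 2473 of 2473 rows lay on chromosomes 1 to 22 and X. No MTBP binding value entered the choice. DLD-1 is an established human colorectal adenocarcinoma line. The study compared MTBP binding, H3K4me2 and replication initiation in 22 libraries of that line, of which 9 were EdU-seq libraries in 3 groups of 3. The released wild-type group (EdU-seq-WT) and the G1-arrested group (EdU-cont) had the genotype MTBP-mAID/MTBP-WT-FLAG, in which a degron-tagged MTBP stood beside a full-length FLAG-tagged one. The released deltaC group had MTBP-mAID/MTBP-deltaC-FLAG, so every EdU-seq group carried a degron-tagged allele and no EdU-seq group was of untagged cells. Cells were given 10 µM EdU, a thymidine analogue, for 3 hr, the label was coupled with 100 µM biotin azide, and DNA was sheared to 300 to 500 bp. Released cells entered S phase with hydroxyurea and aphidicolin present, and the list is taken here as that of released WT cells against G1-arrested cells. The list itself names no library. The deltaC libraries gave no value used here.

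Replication starts at many sites per chromosome, each set up in G1 by loading of the MCM helicase and switched on in S phase by factors that include Treslin and MTBP. In human cells the earliest sites lie in gene-rich, transcriptionally active chromatin and fire as broad zones, within which the exact site differs from cell to cell. Hydroxyurea depletes nucleotides and aphidicolin inhibits the replicative polymerases, so forks stay close to where they began and late sites remain unlabelled. The list held 4 columns, a chromosome, a start, an end and the authors' average peak score, on a scale that is not given in the sources used here. It held no value per library, so the spread between the 3 replicates is not known, and everything below is a description without a test. Depth of the EdU-seq libraries is likewise unknown. Coordinates are those of the authors' hg38 lists, and genes are those of RefSeq on GRCh38.p14.

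The promoters below are of 4 genes whose starts lay in zones, shown because they differ in the base composition and motifs described further on (chosen after their values were seen). CDX2 (chr13:27969266-27969565, minus strand) encodes an intestinal transcription factor, and FOS (chr14:75278578-75278877, plus strand), JUNB (chr19:12791236-12791535, plus strand) and IER2 (chr19:13150161-13150460, plus strand) are immediate early genes, which are switched on within minutes of a growth signal. Each run holds 300 bases from RefSeq (GRCh38.p14), 250 before and 50 after the start, 5′ to 3′ on the gene's strand. Capitals mark GC boxes (GGGCGG on either strand) and TATA boxes (TATAAA).
CDX2: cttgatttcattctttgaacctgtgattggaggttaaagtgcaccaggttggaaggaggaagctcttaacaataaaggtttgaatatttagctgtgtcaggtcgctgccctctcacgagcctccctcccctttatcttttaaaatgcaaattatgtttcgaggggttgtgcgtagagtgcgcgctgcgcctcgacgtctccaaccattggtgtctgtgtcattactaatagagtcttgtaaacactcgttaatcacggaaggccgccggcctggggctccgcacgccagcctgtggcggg
FOS: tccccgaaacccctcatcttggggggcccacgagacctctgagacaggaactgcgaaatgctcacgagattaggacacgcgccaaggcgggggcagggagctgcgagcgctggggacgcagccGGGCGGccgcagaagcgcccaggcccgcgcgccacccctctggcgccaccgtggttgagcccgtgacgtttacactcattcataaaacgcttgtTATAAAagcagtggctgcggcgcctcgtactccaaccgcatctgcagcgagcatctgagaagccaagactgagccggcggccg
JUNB: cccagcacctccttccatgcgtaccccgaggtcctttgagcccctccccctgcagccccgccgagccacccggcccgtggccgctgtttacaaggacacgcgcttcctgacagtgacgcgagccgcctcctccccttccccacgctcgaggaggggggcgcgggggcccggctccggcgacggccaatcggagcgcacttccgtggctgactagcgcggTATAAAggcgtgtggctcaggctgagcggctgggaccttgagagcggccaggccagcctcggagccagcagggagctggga
IER2: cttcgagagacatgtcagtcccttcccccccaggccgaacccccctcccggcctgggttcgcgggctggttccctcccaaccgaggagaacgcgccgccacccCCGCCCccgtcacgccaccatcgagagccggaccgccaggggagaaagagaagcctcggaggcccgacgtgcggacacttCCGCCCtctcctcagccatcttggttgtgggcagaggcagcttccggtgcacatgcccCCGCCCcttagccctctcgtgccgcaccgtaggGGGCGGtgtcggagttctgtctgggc

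The 4 windows differed in composition. The IER2 window was 69.7% G or C and held 4 GC boxes, and the FOS window was 64.7% G or C with 1 GC box and 1 TATA box. JUNB, at 71.0%, held 1 TATA box and no GC box in these letters. CDX2 was 50.3% G or C and held neither. The zone around FOS was narrow, at 23.8 kb (chr14:75271650-75295415), as was that around CDX2, at 16.7 kb (chr13:27965946-27982640). JUNB lay in a zone of 120.5 kb (chr19:12723104-12843634) that held 11 gene starts, and IER2 in one of 36.5 kb (chr19:13148368-13184851).

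The zones covered 143 Mb, which was 4.72% of the 3030 Mb spanned by the lists and the gene table. The median zone was 48.3 kb wide, with quartiles of 27.8 and 74.2 kb, a lowest value of 6302 bp and a highest of 420428 bp. Zones under 20 kb made up 16.4% of zones but 3.82% of zone bases. The 247 widest zones held 26.9% of zone bases. The widest zone (chr6:43662969-44083397) contained the starts of MRPS18A, a mitochondrial ribosomal protein gene, and VEGFA, which encodes the main growth factor for blood vessels. The next (chr7:73520999-73882688, 361.7 kb) held 13 gene starts, the first 4 in order being BAZ1B, BCL7B, TBL2 and MLXIPL, and CLDN3 and CLDN4, 2 epithelial tight junction genes. The others of the 5 widest lay at chr1:155005796-155325769 (320.0 kb, DCST2, DCST1, ADAM15 and EFNA4-EFNA3 first of 22 starts), chr20:50216558-50534684 (318.1 kb, PTPN1, a tyrosine phosphatase gene) and chr1:8021541-8337538 (316.0 kb, ERRFI1, a feedback inhibitor of the EGF receptor, and SLC45A1). Wide zones were thus of very different gene content, from 1 to 22 starts. The 5 narrowest were 6302 to 6652 bp wide, and 1 of them held a gene start, that of PUS1, a pseudouridine synthase gene (chr12:131924423-131930893).

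Zones lay in clusters with long empty stretches between them. The median gap between neighbours was 156 kb over 2450 gaps, against a mean of 1.09 Mb, and 287 kb between zones with a score at or above the median. Gaps under 100 kb were 39.4% of gaps, and gaps over 1 Mb were 17.7% of gaps but 75.3% of the span. When zones under 100 kb apart were counted as 1 cluster, 1462 zones fell into 496 clusters and 1011 stood alone. The largest cluster had 15 zones with 67 gene starts, at chr19:511618-2642323. The next had 14 zones at chr17:41497646-43046323 and 13 at chr22:37153035-38576721. The 386 zones in clusters of 5 or more had a median width of 62.1 kb and a median score of 959, against 44.0 kb and 530 for single zones. A gene start was found in 86.8% of the zones in clusters of 5 or more and in 68.8% of single zones.

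**Figure D1:**
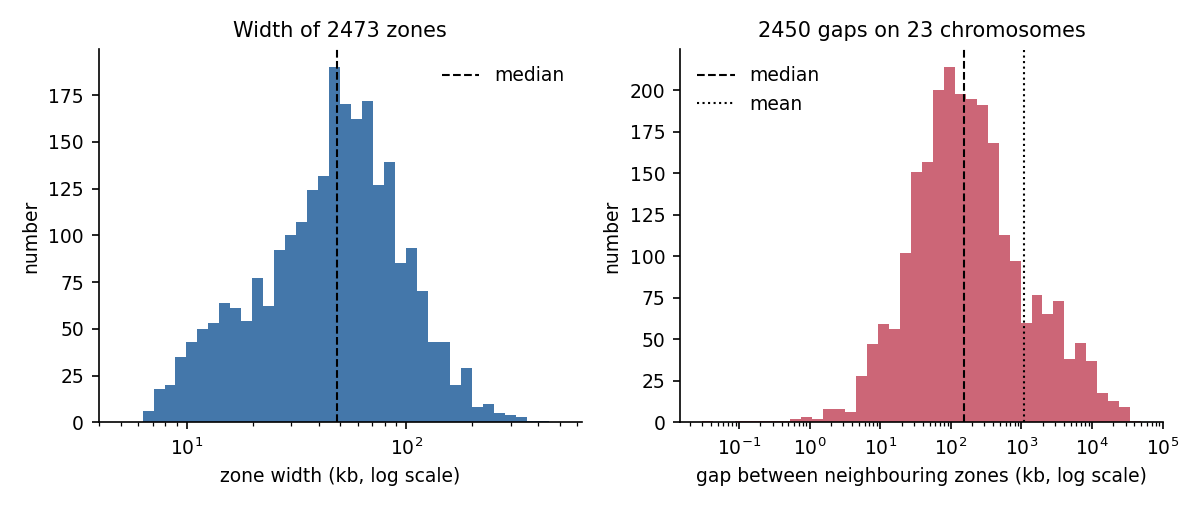
Number of zones by width (left) and number of gaps between neighbouring zones by length (right), both in kb on log axes, with dashed lines at the medians (48.3 and 156 kb) and a dotted line at the mean gap. The widths form 1 broad peak, and the gaps have a long right arm reaching 39.997 Mb.

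The 5 longest gaps were on 5 chromosomes and were not empty of genes. The longest, of 39.997 Mb, ran from chr3:58540203 to chr3:98536665 and held 80 protein-coding genes, 39 of them with an H3K4me2 peak, a mark of active and poised promoters and enhancers, within 1 kb of the start. A gap of 31.4 Mb on X held 116 genes, 1 of 30.9 Mb on chromosome 4 held 96, 1 of 30.7 Mb on chromosome 9 held 31 and 1 of 30.013 Mb on chromosome 13 held 79. Their gene density was 1.01 to 3.70 per Mb. Centromere positions were not used here. At the other extreme, the closest neighbours were 30 bp apart on chromosome 21 (chr21:44829927-44865583 and chr21:44865613-44938478, the second with the starts of PTTG1IP and ITGB2). The other shortest gaps were 120, 149, 217 and 312 bp, on chromosomes 19, 3, 8 and 2. In all, 126 gaps were under 10 kb.

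Zone density differed 14.2-fold between chromosomes, and 72.5-fold among the zones with a score at or above the median. That median was 628, and zones on X had a median score of 208, so most zones on X were left out of the second value. Chromosome 17 had 207 zones, or 2.49 per Mb, chromosome 19 had 2.42 per Mb and chromosome 22 had 2.17 per Mb. Those 3 held 18.6% of zones in 6.36% of the span. The lowest densities were 0.175 per Mb on chromosome 13 (20 zones), 0.244 on X (38 zones) and 0.310 on chromosome 4 (59 zones). Zone density and gene density had a rank correlation of 0.90 over the 23 chromosomes, which share 1 list and 1 set of libraries. Set against genes, chromosome 22 was the highest, with 24.4 zones per 100 protein-coding genes, and X the lowest, with 4.48. Chromosome 19 had 9.79 zones per 100 genes although its zones per Mb were nearly the highest. In windows of 10 Mb, 43 of 293 windows held 50% of the zones and 54 windows held none. The 54 windows without a zone had a median of 21 protein-coding genes and up to 55. Within 10 Mb of a chromosome end lay 23.01% of zones, 15.2% of the span and 22.1% of protein-coding genes.

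**Figure D2:**
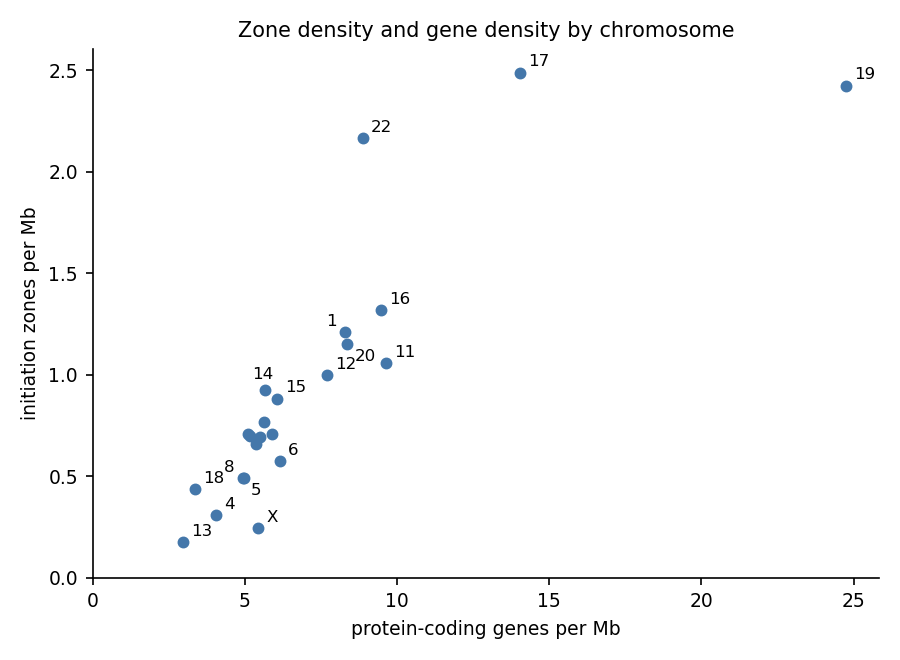
Initiation zones per Mb (vertical) against protein-coding genes per Mb (horizontal), 1 point per chromosome. Chromosomes 17, 19 and 22 stand highest, at 2.49, 2.42 and 2.17 zones per Mb, and 13 and X lowest. The 6 unlabelled points are chromosomes 2, 3, 7, 9, 10 and 21.

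The authors' score was higher in wider zones. The score ranged from 46.4 to 10226, with a median of 628, and its rank correlation with width was 0.892 over the 2473 zones. On log2 scales the slope was 1.24 and the SD of the residual was 0.66. The relation was uneven along the widths. From the narrowest to the widest decile of zones the median score was 99.5, 177, 289, 411, 634, 865, 1096, 1400, 1685 and 2133. Within deciles the rank correlation was 0.419 in the narrowest, 0.019 and 0.040 in the eighth and ninth and 0.352 in the widest. The zones of those deciles, with median widths of 74.2 and 93.9 kb, thus differed widely in score at like widths, for example from 261 to 4345 in the eighth decile. How the authors averaged peaks within a zone is not given in the sources used here, and the part of that step in the relation was not tested. The spread of widths differs between deciles, and its part in the correlations within deciles was not tested either.

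The highest score, 10226, belonged to a zone of 230.6 kb at chr2:47161421-47391992, which held the starts of CALM2, a calmodulin gene, and EPCAM, the epithelial cell adhesion molecule. The second was 8422 at chr8:140984396-141148480, with PTK2, the gene of focal adhesion kinase, and DENND3. The widest zone, with MRPS18A and VEGFA, came next at 8084. The fourth, 7858, was at chr10:73853650-74020523 with CAMK2G, PLAU, the gene of urokinase, and VCL, the gene of vinculin. The fifth, 7328, was at chr19:2438633-2642323 with LMNB2, a lamin gene, GADD45B and LOC124904789. These 5 zones were 164 to 420 kb wide, and each held 2 or 3 gene starts.

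The best-scoring zone of each chromosome had a score between 1077 on X and 10226 on chromosome 2. That of chromosome 12 (chr12:52870329-53020360, 5685) held KRT8 and KRT18, the paired keratins of simple epithelia, and EIF4B. That of chromosome 7 (chr7:5495499-5622428, 3995) held FBXL18, ACTB, which encodes beta-actin, and FSCN1. That of chromosome 22 (chr22:36363639-36483549, 6427) held MYH9, a non-muscle myosin gene, and TXN2. That of chromosome 17 (chr17:49859266-50075608, 6728) held DLX4, DLX3 and the integrin gene ITGA3, and that of chromosome 18 (chr18:48926189-49034551, 3504) held SMAD7, an inhibitor of TGF-beta signalling. On chromosome 5 (chr5:133980361-134129124, 4102) the starts were those of VDAC1, LOC124901069 and TCF7, a transcription factor of the Wnt pathway. The 1 best-scoring zone with no gene start was on chromosome 13 (chr13:110414010-110508733, 2244), inside the collagen gene COL4A2.

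Zones on X scored low for their width. Their median score was 208, and they lay a median of 0.72 log2 units below the score fitted from width, against medians from -0.15 to 0.23 on the autosomes, where chromosome 2 was the highest. The median width on X was 33.2 kb. Of the 5 zones farthest below the fitted score, 2 were on X (chrX:39898017-40004865, score 314, no gene start, and chrX:20043432-20101462, score 170, inside MAP7D2). The others included chr22:30511691-30698539 (669, with SEC14L6, GAL3ST1, PES1 and TCN2 first of 7 starts) and chr6:37014594-37209261 (710, with FGD2 and PIM1). An MTBP peak lay in 42.1% of zones on X, and in 76.5% to 90.6% of zones on each autosome. The copy number of each chromosome in these cells was not examined, and its part in the scores was not tested. The 5 zones farthest above the fitted score were 50.8 to 114.5 kb wide with scores of 2732 to 6124, and held TALDO1 on chromosome 11, FGFR3 and LETM1 on 4, MAFG, PYCR1, MYADML2 and NOTUM (the first 4 of 5 starts) on 17, ASPRV1, PCBP1 and C2orf42 on 2, and NFAT5 on 16. Either end of a gene counted as its start where strand was not known, so a gene named for a zone may have only its far end there.

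**Figure D3:**
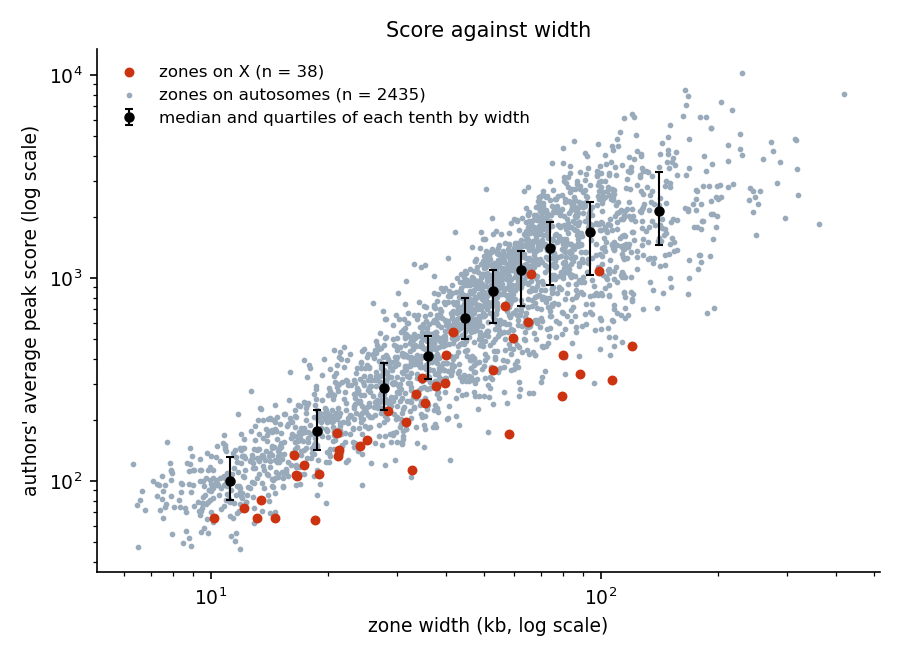
The authors' average peak score against zone width in kb, both on log axes, for the 38 zones on X (red) and the 2435 on autosomes (grey), with the median and quartiles of each width decile in black. Score is higher at larger widths, the medians flatten among the widest zones, and the zones on X lie low, a median of 0.72 log2 units below the fit.

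Neighbouring zones had weakly similar scores when close. The rank correlation of the scores of adjacent zones was 0.23 for the 597 pairs under 50 kb apart, 0.18 for the 774 pairs 50 to 200 kb apart, 0.047 for the 646 pairs 200 kb to 1 Mb apart and 0.040 for the 433 pairs farther apart. These are scores not adjusted for width, which had a rank correlation of 0.892 with score, and the part of width was not tested. Whether close pairs were single zones split in calling was not tested either.

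Zones were rich in gene starts rather than in gene bodies. Either end counted as a start for the 4162 protein-coding genes without known strand. Of 19974 protein-coding genes, 4144 had a start in a zone, or 20.7%. The share was 35.1% when zones were widened by 50 kb, and 11.2% when the whole gene had to lie in 1 zone. There were 29.0 gene starts per Mb in zones and 5.48 per Mb outside, a ratio of 5.28. Gene bodies, in contrast, covered 44.7% of zone bases and 41.6% of the whole span. Of the zones, 1809 (73.2%) held a protein-coding gene start, 805 of them 1 start and 296 of them 4 or more. The zone at chr1:155005796-155325769 had the most, 22. The next were chr17:7259297-7451178 with 19 (CLDN7, SLC2A4, YBX2 and EIF5A first), chr11:67344206-67620823 with 18 (POLD4, CLCF1, RAD9A and PPP1CA first), chr3:50105496-50419962 with 18 (LOC124909484, SEMA3F, GNAT1 and SLC38A3 first) and chr11:64222722-64397659 with 17 (TRPT1, NUDT22, DNAJC4 and VEGFB first).

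The share of zones with a gene start followed width. It was 33.1% in the narrowest decile and 92.7% in the widest, while gene starts per Mb of zone were 32.6 and 27.5. The narrow zones thus held about as many starts per base as the wide ones. The same held for H3K4me2 peaks, with medians of 7.87 per 100 kb in zones under 20 kb wide and 7.64 in those of 100 to 200 kb. An H3K4me2 peak lay in 92.9% of zones. An MTBP peak lay in 48.5% of zones under 20 kb, in 77.2% of those of 20 to 50 kb and in 95.7% of those of 50 to 100 kb, against 81.8% of all zones. A wider zone has more room for a peak by its length alone.

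The 664 zones without a protein-coding start fell into 3 kinds. No part of a protein-coding gene lay in 385, 154 lay wholly inside 1 gene, and 125 overlapped part of a gene. The 385 zones without a gene were narrow, with a median of 24.4 kb and a median score of 217, against 55.8 kb and 833 for zones with a start. Their median residual from the score fitted from width was -0.16 log2 units, against 0.12 for zones with a start. That fit was 1 straight line, while the relation was uneven along the widths. Among all zones, the deciles with median widths of 18.7 and 27.8 kb had median scores of 177 and 289. Those with median widths of 52.8 and 62.3 kb had 865 and 1096. The residuals thus do not show that zones without a gene scored low for their width. An H3K4me2 peak lay in 78.7% of the zones without a gene and in 97.5% of those with a start, and an MTBP peak in 62.1% and 88.3%. A start of a long non-coding RNA lay in 37.1% of the zones without a gene. The 5 widest zones without a gene were chr8:100959896-101158705 (198.8 kb, nearest gene YWHAZ at 6.51 kb), chr10:118829638-118986511 (156.9 kb, NANOS1 at 43.2 kb), chr11:69377494-69529070 (151.6 kb, MYEOV at 80.2 kb), chr5:17073162-17205369 (132.2 kb, BASP1 at 11.5 kb) and chrX:46284947-46405246 (120.3 kb, KRABD4 at 42.1 kb). Each held 7 to 17 H3K4me2 peaks.

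Genes with a marked start were in zones more often than others. Of 12360 protein-coding genes with an H3K4me2 peak within 1 kb of the start, 3233 started in a zone (26.2%). Of the 7614 without one, 911 did (12.0%). Genes in zones were shorter, with a median of 17.5 kb, against 26.7 kb for genes outside. The share of genes starting in a zone was 21.9% for genes under 5 kb, 26.5% for those of 5 to 20 kb, 20.96% for 20 to 50 kb, 17.6% for 50 to 100 kb, 15.3% for 100 to 200 kb, 9.15% for 200 to 500 kb and 2.55% for those over 500 kb. Among marked genes the share was lower in each longer class, at 6.56% over 500 kb and 36.2% under 5 kb. Of the 314 genes over 500 kb, 28 overlapped a zone at all.

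Genes at zone boundaries mostly read out of the zone. Of the 4946 boundaries, 3002 (60.7%) lay inside a protein-coding gene, while such genes covered 41.6% of the span and 44.7% of zone bases. Strand was known for 15812 of the 19974 genes, with none on chromosome 8. There were 2244 pairs of a zone and a stranded gene in which the gene crossed 1 boundary of the zone. In 1436 of them (64.0%) the gene started in the zone and read out of it, and in 808 it started outside and read in. The share reading out was 65.7% where the gene had H3K4me2 at its start and 54.4% where it had none. It was 53.6% for genes under 20 kb, 62.3% for 20 to 50 kb, 68.3% for 50 to 100 kb and 73.3% for genes over 100 kb. It exceeded 50% on 21 of the 22 chromosomes with a value, and X, with 25 pairs, had 44.0%. Across quintiles of zones by score it stayed between 61.5% and 67.1%. Among the highest-scoring zones, CAMK2G and VCL both read out of the zone at chr10:73853650-74020523, at opposite ends, and MYH9 read out of that at chr22:36363639-36483549 (MYH9 is 106.7 kb long and VCL 123.2 kb).

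A gene that starts in a zone and crosses 1 boundary reads out by definition, and the part of the density of starts in the share reading out was not tested. The direction of starts was also counted by distance from the boundary. In the outer 10 kb of zones, 840 gene starts read towards the near boundary and 332 towards the zone's inside, or 18.5 and 7.31 per Mb. At 10 to 20 kb inside, the values were 17.2 and 7.22 per Mb, and at 20 to 30 kb inside 11.8 and 7.73. Deeper, at 30 to 50 kb, the order was turned, with 8.20 and 9.43 per Mb at 30 to 40 kb. In the first 10 kb outside, 9.47 starts per Mb read away from the zone and 6.801 towards it. From 20 kb outside, the directions were close to equal, with ratios of reading away to reading towards between 0.868 and 1.13 in the 10-kb bins out to 150 kb. Outward-pointing starts were thus densest in the last 20 kb before the edge of a zone.

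**Figure D4:**
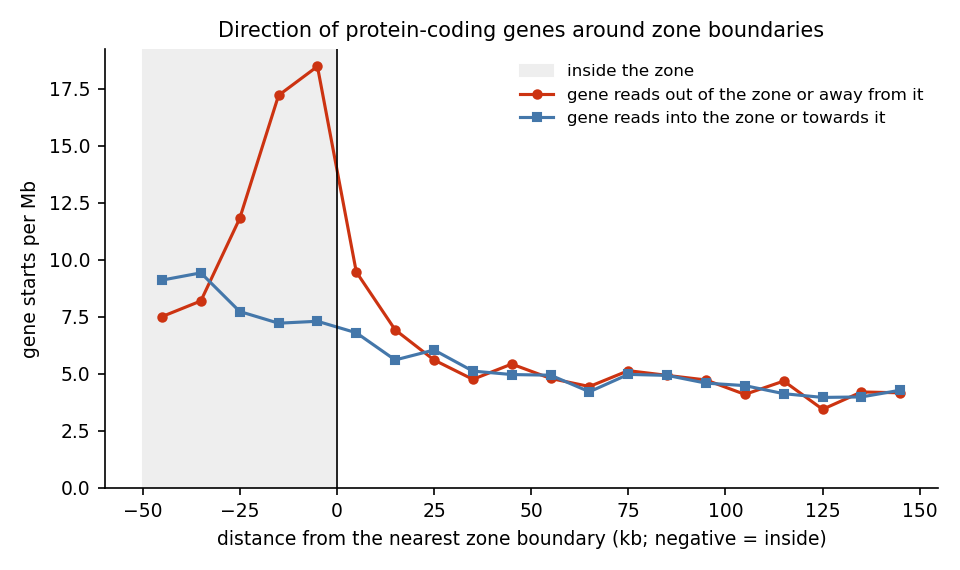
Starts of protein-coding genes per Mb (vertical) by distance from the nearest zone boundary in kb (horizontal, negative inside the zone, shaded), in 10-kb bins, for genes reading out of or away from the zone (red) and into or towards it (blue). Outward starts peak at 18.5 per Mb in the last 10 kb inside the boundary, where inward starts stand at 7.31, and the lines meet beyond 20 kb outside.

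Promoters in zones were richer in G and C. Among 15812 promoters, the 3085 with a start in a zone had a median of 66.3% G or C, against 61.7% for the 12727 others. A GC box (GGGCGG, on either strand) was found in 71.2% of promoters in zones, in 55.2% of the others and in 58.3% of all. A TATA box (TATAAA) was found in 6.48%, 10.5% and 9.75%. The differences were smaller among promoters with H3K4me2. There, the median was 67.3% in zones and 64.7% outside, a GC box was in 76.7% and 69.1%, and a TATA box in 5.39% and 5.84%. The ETS motif CCGGAAG ran the other way among marked promoters, at 16.0% in zones and 20.7% outside. The AP-1 motif TGACTCA was in 3.96% and 2.69%. The CCAAT box (CCAAT) was in 37.1% and 36.9%.

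Intestinal epithelial genes and immediate early genes had the highest shares in zones of the 23 gene lists counted. Of 36 intestinal epithelial genes, 16 started in a zone (44.4%, 95% Wilson interval 29.5 to 60.4), against 20.7% of all protein-coding genes. Such intervals cover counting only and treat genes as independent, although neighbours share zones. They included CDX2 and the adhesion genes CDH1 (chr16:68691147-68748526) and CDH17, the tight junction genes CLDN3, CLDN4 and CLDN7, EPCAM, KRT8 and KRT18. The colonic stem cell gene LGR5, named after its value was seen, lay 4173 kb from the nearest zone. In zones were 1 of 14 hepatocyte genes (APOA1, interval 1.27 to 31.5%), 1 of 14 neuronal genes (GRIN1, the same interval), 1 of 13 muscle genes (CKM, 1.37 to 33.3%) and 3 of 14 blood genes (7.57 to 47.6%). All 4 intervals hold the 20.7% of all genes, and the differences between lists were not tested. Among genes with strand known, the share was 0 for hepatocyte, neuronal and blood genes. An H3K4me2 peak was at the start of 25 of the 36 intestinal genes, 4 hepatocyte, 7 neuronal, 0 muscle and 4 blood genes. The intestinal share was 69.4%, against 61.9% of all protein-coding genes.

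Immediate early genes and feedback inhibitors of the MAPK pathway had the highest share of the 23 lists, 14 of 28 (50%, interval 32.6 to 67.4). All 28 had H3K4me2, and among all marked genes 26.2% were in zones. For marked genes under 5 kb the share was 36.2%, and for those of 5 to 20 kb 33.1%, both within the list's interval. The list was not matched for gene length. Among the 14 in zones were the AP-1 subunit FOS, the transcription factors EGR1 (chr5:138431339-138505393, score 2423) and ETV4 (chr17:43533393-43611478, 1560), the MAPK phosphatases DUSP5 (chr10:110302731-110501749, 2453) and DUSP6 (chr12:89351113-89398838, 556), and ERRFI1 (4807). Their zones ranged in width from 23.8 kb for FOS to 316.0 kb for ERRFI1. JUN, named after its value was seen, was 2924 kb from a zone. Of 12 EGF receptors and ligands, 4 were in zones (AREG, HBEGF, ERBB2 and ERBB3). Of 19 Wnt targets, 6 were (AXIN2, EPHB2, NOTUM, RNF43, TCF7 and ZNRF3). Their intervals, 13.8 to 60.9% and 15.4 to 53.99%, both hold 20.7%. With the whole gene in 1 zone, Wnt targets stood at 5.26%, against 11.2% of all genes.

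Of 43 genes of the replication machinery, 9 started in a zone (20.9%), against 20.7% of all genes. Of the 42 with H3K4me2, 21.4% did, against 26.2% of all marked genes. With the whole gene in 1 zone the list stood at 6.98%, against 11.2% of all genes. These included the helicase subunits MCM2 and MCM5, the loader CDT1, the GINS subunits GINS1 and GINS2, and the kinase CDK2. MTBP itself, named after its value was seen, lay 2309 kb from the nearest zone. Of 15 housekeeping genes, all with H3K4me2, 2 were in zones (ACTB and PPIA), or 13.3%, and 60% had a start in a zone widened by 50 kb, against 35.1% of all genes. Ribosomal protein genes stood at 30 of 96 (31.3%), and at 26 of 86 (30.2%) when 10 kinase genes that share the RPS6K symbol were left out. Proteasome subunits stood at 14 of 50, mitochondrial ribosomal proteins at 16 of 77, and solute carriers at 87 of 398.

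**Figure D5:**
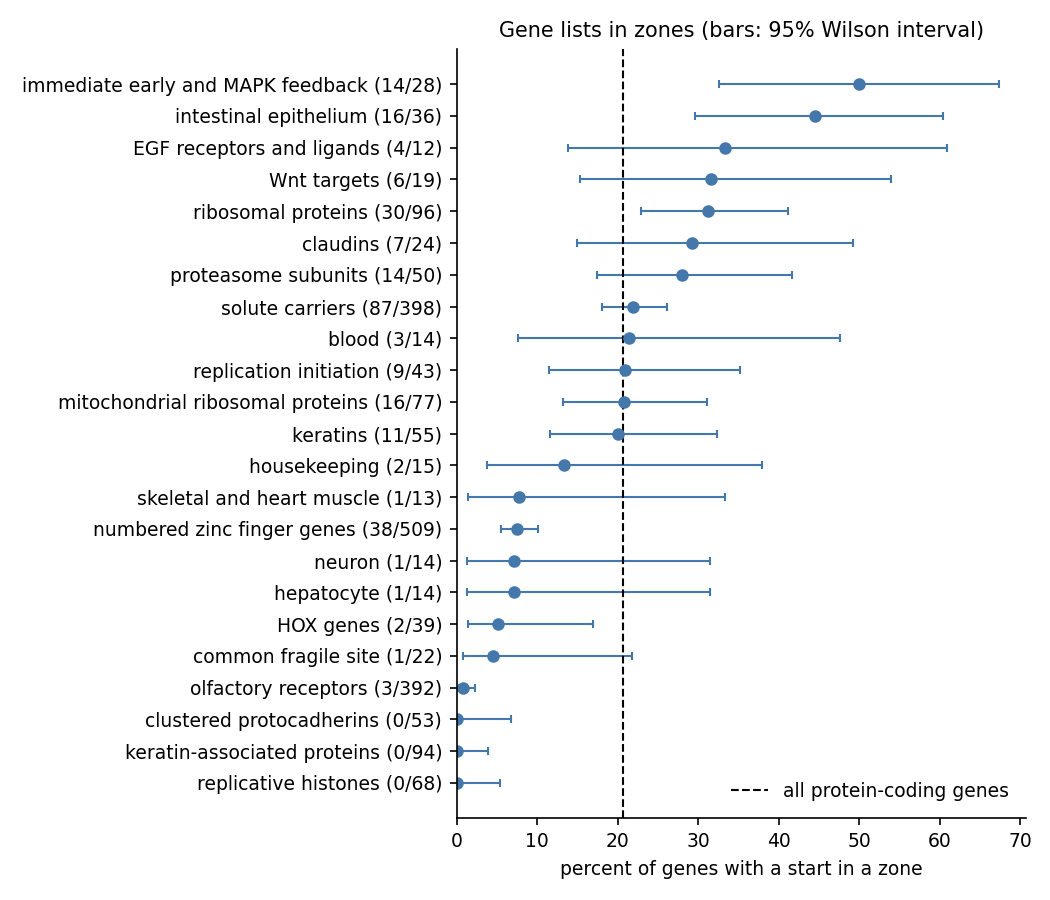
Percent of the genes of each list with a start in a zone (horizontal), with 95% Wilson intervals and the number in zones over the number of genes, and a dashed line at the share of all protein-coding genes (20.7%). Immediate early and intestinal genes stand highest, at 50% and 44.4%, and replicative histones, clustered protocadherins and keratin-associated proteins at 0.

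Large gene clusters were mostly outside zones. None of the 68 replicative histone genes started in a zone (interval 0 to 5.35%), although 53 had H3K4me2. The interval treats the 68 as independent, but they are clustered, and 7 remained with 1 gene kept per 500-kb cluster. These genes are expressed in S phase to package new DNA. The 54 on chromosome 6 lay 1030 to 3197 kb from the nearest zone, and the 13 on chromosome 1 lay 66.3 to 358 kb away. None of 94 keratin-associated protein genes and none of 53 clustered protocadherins were in zones, and 9 and 3 of these had H3K4me2. With 1 gene kept per 500-kb cluster, 6 and 2 of them remained. Of 392 olfactory receptors, 3 were in zones (OR10V1, OR6J1 and OR1F1), and 11 had H3K4me2. Of 39 HOX genes, 2 were in zones (HOXB1 and HOXB2), both in the zone at chr17:48436683-48548324, although 30 had H3K4me2. With 1 gene kept per 500-kb cluster only 4 HOX genes remained. Their share was 25%, against 11.8% of the 3536 other genes thinned likewise and 20.7% of all genes before thinning. Of 22 genes at common fragile sites, which replicate late and break under replication stress, 1 was in a zone, USP32, in a zone of 8.65 kb with a score of 56.7. The share was 4.55% (interval 0.807 to 21.8%), and the interval holds the 20.7% of all genes. Of all genes over 500 kb, 2.55% started in a zone, and the list was not matched for gene length.

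Zinc finger genes showed the same within 1 chromosome. Of 509 numbered zinc finger (ZNF) genes, 38 started in a zone (7.47%), and of the 305 with H3K4me2, 31 did (10.2%, against 26.2% of all marked genes). With 1 gene kept per 500-kb cluster, 203 ZNF genes remained and their share was 12.3%. That of the 3511 other genes thinned likewise was 11.9%, against 20.7% of all genes before thinning. On chromosome 19, 4 of 246 ZNF genes were in zones, against 425 of 1205 other genes (35.3%). Keratin genes were split by position. Of 55, 11 were in zones (20%, interval 11.6 to 32.4%), close to the 20.7% of all genes. Of the 16 with H3K4me2, 9 were, or 56.3%, against 26.2% of all marked genes. On chromosome 12, named after their values were seen, KRT80, KRT7, KRT86, KRT81 and KRT83 shared 1 zone (chr12:52127143-52345048), KRT5 had its own, and KRT8 and KRT18 shared the best-scoring zone of the chromosome. The other keratin genes of chromosome 12 lay 12.2 kb (KRT71) to 149 kb (KRT77) from a zone. The share of all 55 was 49.1% with zones widened by 50 kb, against 35.1% of all genes, and 5.88% among genes with strand known, against 19.6%. Claudin genes stood at 7 of 24 (29.2%, interval 14.9 to 49.2%), and the interval holds the 20.7% of all genes. Of the 8 with H3K4me2, 5 were in zones.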

How the data were processed

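EdU-seq libraries of DLD-1 cells gave 1 deposited list of initiation zones. The submitters' processing notes name hg38 as the build, and as software MACS2, HOMER, Bowtie2 and Trim Galore. Versions, settings and any pooling of replicates were not given in the sources used here. The authors gave each zone an average peak score of unstated scale, used as deposited. The score columns of the authors' MTBP and H3K4me2 lists served only to rank peaks within their list. The signal that the authors' MTBP list gives for each line, and the fold enrichment and −log10 p and q values of the deposited H3K4me2 list, were not used. No value per library was in the list, so no replicate error, depth or test could be had, and the sources of the 9 EdU-seq libraries enter only through the labels.

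Genes were those of RefSeq (GRCh38.p14, 19974 protein-coding). A gene start was the end given by the strand of the RefSeq promoter table (15812 genes), and either end for the others, of which 25.2% were in zones, against 19.6% of genes with strand. A peak within 1 kb marked a start. Overlap meant 1 bp or more. A chromosome's span ran to the last coordinate found for it in the lists or among the genes. Medians, shares, rank correlations and 95% Wilson intervals were computed in Python 3.11.15 with pandas 2.3.3, numpy 2.4.6 and scipy 1.17.1. Interval functions were tested on simulated intervals. Zones and genes were named by rule (extremes of score, width, residual, gene number and gap, the best-scoring zone of each chromosome, up to 6 list members in alphabetical order), with exceptions marked. Some items that the rule names are not reported here. The members and gene lists were chosen with earlier results of these data known.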

Additional observations from a re-analysis of the deposited data

How the results depend on the processing

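No paired analysis was possible because the zone list holds no value per library, and for the same reason no replicate could be left out. With only zones scoring at or above the median, width (72.1 kb), gap (287 kb), density range (72.5-fold), score against width (0.644), genes in zones (15.4%), zones with a start (88.9%) and outward starts in the outer 10 kb (68.6%) moved. Joining zones under 10 kb apart gave a width of 50.1 kb, a gap of 174 kb and a correlation of 0.871, and autosomes alone gave 21.5% of genes in zones. Genes in zones were 35.1% with zones widened by 50 kb, 24.5% for any overlap, 11.2% for whole genes, 23.8% with either end and 19.6% with strand known. Zones with a gene were 93.3%, 84.4%, 37.0%, 78.3% and 62.5% under the same rules. With peaks scoring at or above their list's median, 65.3% of zones had MTBP and 86.1% had H3K4me2, and 91.3% had H3K4me2 by peak centre. The number of gene lists above all genes, 11 of 23, was 8 to 15 under the other settings and 20 with 1 gene per chain of genes within 500 kb, a setting added after seeing the data that leaves few other genes. There, olfactory receptors (4.08%, others 2.83%), HOX genes (25%, others 2.85%), ZNF genes (14.1%, others 2.91%), hepatocyte (9.09%, others 2.86%), neuronal (7.69%, others 2.94%), muscle (9.09%, others 2.86%), housekeeping (13.3%, others 2.86%), fragile site (4.55%, others 2.88%) and keratin genes (50%, others 2.94%) crossed to the other side. With 1 gene per 500-kb cluster, HOX genes (25%, others 11.8%), ZNF genes (12.3%, others 11.9%), housekeeping genes (13.3%, others 11.8%) and keratins (25%, others 11.8%) did so too. HOX genes and keratins kept only 4 genes each there, and 4 and 2 with chains of genes. Both kinds of thinning also lowered the share of the other genes, from the 20.7% of all genes before it. Housekeeping genes kept all 15 genes and their 13.3%, so that they changed side only because the share of the other genes fell. A change of side under thinning is thus not by itself a change in the list. Under the other settings run on all 23 lists, 1 to 4 lists changed side, and replication genes did so in 5 settings. Coverage, the density ratio of starts and the share of boundary genes reading out kept within their limits under every setting run. These limits were not alike. Those of coverage (3.15 to 7.09%) and the density ratio (3.52 to 7.92) lay 1.5-fold below and above the main value. Width (47.0 to 49.9 kb) and the share reading out (62.0 to 66.0%) had narrower intervals. Coverage thus counted as kept although it fell from 4.72% to 3.48% with only zones scoring at or above the median. The settings on strand, on counting each gene once and without RPS6K kinases were also added after seeing the data. Causes were not tested.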

Other observations

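Other kinds of gene also started in zones, at lower shares than protein-coding genes. Of 18177 long non-coding RNA genes, 1891 started in a zone (10.4%), as did 298 of 1911 miRNA genes (15.6%), 66 of 443 tRNA genes (14.9%), 148 of 1196 snoRNA genes (12.4%) and 1028 of 15212 pseudogenes (6.76%). Of 248 immunoglobulin and T cell receptor V segments, 1 did (0.403%). Strand was known for some of the long non-coding RNA genes and for none of the other kinds, so either end counted there, which favours long genes.

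Some long genes held several separate zones. GPHN, which encodes gephyrin and is 1227 kb long, and RAD51B, a recombination gene of 863 kb next to it on chromosome 14, each overlapped 4 zones and had their starts outside zones. Of 791 pairs of genes that read away from each other with starts within 1 kb, both starts lay in a zone in 126 (15.9%). Of single genes with strand known, 19.6% had a start in a zone, and of those with H3K4me2 24.5%.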
